A study of Mus musculus with 8 samples.

Results

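The genes described here are Nppb, Sst and Nts, 3 of the 43372 gene symbols in the count table, taken by symbol as the peptide genes of one class of itch-sensing neurons. All 3 passed the filter on low counts that left 11828 genes. Nppb encodes the precursor of the natriuretic peptide BNP, Sst the precursor of somatostatin and Nts the precursor of neurotensin. The libraries were made from dorsal root ganglion (DRG) neurons of C57Bl/6 mice, the sensory neurons that carry touch, pain, temperature and itch to the spinal cord. The Sst group has the genotype Ssttm2.1(cre)Zjh/J (Sst-IRES-Cre) and the Trpv1 group Trpv1tm1(cre)Bbm/J (Trpv1-IRES-Cre), with 4 libraries each. Pups of both groups received the Cre-dependent virus AAV9-CAG-FLEX-eGFP-WPRE, or its counterpart AAV9-CAG-FLEX-tdTomato-WPRE, into the peritoneum at postnatal day 2, and the labels do not say which sample had which. From mice of both sexes, 3 to 5 weeks old, pools of 150 to 250 fluorescent cells were hand-picked from each animal.

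These groups are pools defined by a reporter, not by the peptides themselves. In each line Cre is knocked into the named gene's own locus. The Sst counts of the Sst libraries can therefore come, in whole or in part, from an altered locus. The same holds for the Trpv1 counts of the Trpv1 libraries. The reporter stays on once Cre has acted, and a picked neuron need not be making the gene when its RNA is taken. A lower level in a pool can come from fewer cells of a type or from less RNA per cell, and these cannot be told apart.

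The 3 peptides are known as markers of one small class of mouse DRG neurons, named NP3, which also carries receptors for interleukin-31, leukotrienes and serotonin and is tied to itch. Each precursor is cut by proteases in dense-core vesicles, and the released peptide acts on its own receptors: BNP on the guanylyl cyclase Npr1, somatostatin on the inhibitory receptors Sstr1 to Sstr5, and neurotensin on Ntsr1 and Ntsr2. Spinal neurons with Npr1 are known relays of itch. Many other DRG neurons make different peptides, above all CGRP (Calca) and substance P (Tac1).

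Nppb (ENSMUSG00000029019.8) lies on the plus strand of chromosome 4 at 147985788 to 147987205, with 781 bases of merged exons. Sst (ENSMUSG00000004366.4) lies on the minus strand of chromosome 16 at 23889573 to 23890958, with 721 exonic bases. Nts (ENSMUSG00000019890.4) lies on the minus strand of chromosome 10 at 102481756 to 102490486, with 1248 exonic bases. These coordinates are those of GENCODE M21 on GRCm38, the build used for counting, and each gene has 1 annotated transcript there.

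The question of whether the 3 genes vary together makes their promoters worth seeing side by side. Given here are the 250 bases before each RefSeq transcription start (GRCm38.p6), 5′ to 3′ on the gene's strand, with matches to the motifs searched in capitals. They are chr4:147985650-147985899 (plus strand) for Nppb, chr16:23890845-23891094 (minus) for Sst and chr10:102490419-102490668 (minus) for Nts. The RefSeq starts lie inside the GENCODE gene models, so each window overlaps the start of its gene as GENCODE has it.
Nppb promoter: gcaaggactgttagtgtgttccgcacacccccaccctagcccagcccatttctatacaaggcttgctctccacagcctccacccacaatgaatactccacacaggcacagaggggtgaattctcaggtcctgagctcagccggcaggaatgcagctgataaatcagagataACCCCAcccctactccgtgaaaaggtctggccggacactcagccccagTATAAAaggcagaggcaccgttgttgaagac
Sst promoter: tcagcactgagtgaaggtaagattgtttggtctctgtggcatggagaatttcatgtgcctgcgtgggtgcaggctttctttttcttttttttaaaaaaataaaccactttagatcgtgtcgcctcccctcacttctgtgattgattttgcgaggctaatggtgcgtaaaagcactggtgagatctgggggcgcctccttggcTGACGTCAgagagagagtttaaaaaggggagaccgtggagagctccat
Nts promoter: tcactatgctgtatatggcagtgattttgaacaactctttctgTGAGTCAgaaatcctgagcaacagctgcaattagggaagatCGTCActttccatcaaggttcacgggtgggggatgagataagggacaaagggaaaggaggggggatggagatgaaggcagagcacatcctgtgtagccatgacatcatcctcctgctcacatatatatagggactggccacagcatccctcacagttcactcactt
The motifs, searched on both strands, were the cyclic AMP response element (CRE) TGACGTCA, its core TGACG, the AP-1 site TGANTCA, the Runx site TGNGGT and the TATA box TATAAA. The Sst promoter holds a full CRE, the textbook element of this gene, 48 bases before the start, and 1.55% of the 32851 RefSeq promoters hold one. Its 2 matches to the core lie inside that CRE. The Nts promoter holds 1 CRE core 166 bases before the start, on the minus strand, and 1 AP-1 match 207 bases before it, motifs found in 17.8% and 6.75% of promoters. The Nppb promoter holds a TATA box 31 bases before the start (12.4% of promoters) and a Runx match 79 bases before it on the minus strand (40.1%). None of the 5 motifs was found in all 3 windows. GC content was 54.8% for Nppb, 47.2% for Sst and 48.0% for Nts, against a median of 52.4%. A match is a run of letters and says nothing of binding.

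The Sst libraries held 9021125 to 12153109 gene counts each and the Trpv1 libraries 7419027 to 9568508. Levels are counts scaled to library size (CPM) by TMM, means are ± SD over n = 4 libraries, and log2 fold changes are Sst over Trpv1 from edgeR's quasi-likelihood test with Benjamini-Hochberg adjustment over all 11828 genes. A gene is called at an adjusted p under 0.05, and 751 genes were called (6.35% of those tested), at a median log2 fold change of 0.0082. Pan-sensory neuron markers were present throughout, at a summed 2392 to 2698 CPM in the Sst group and 2720 to 2949 in the Trpv1 group. Libraries also stood apart in other ways. Xist had 0 counts in Trpv1 replicates 1 and 2 and 4240 or more in the other libraries. The pituitary hormone genes Gh and Prl had at least 937 counts each in Sst replicate 2 and Trpv1 replicates 1, 2 and 3, and at most 1 in the others.

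Nppb was higher in the Sst than in the Trpv1 libraries on average, without passing the test. The Sst libraries, replicates 1 to 4, held 28.5, 53.9, 23.3 and 62.9 CPM. The Trpv1 libraries held 15.8, 19.1, 11.7 and 28.9 CPM. Sst replicates 2 and 4 lay above every Trpv1 library, while Sst replicates 1 and 3 lay below Trpv1 replicate 4 and above the other Trpv1 libraries, so the groups overlapped. The means were 42.1 ± 19.3 and 18.9 ± 7.33 CPM, and the log2 fold change was 1.15 (SE 0.442, 95% interval 0.23 to 2.06, adjusted p = 0.129). On a linear scale the fold was 2.21 with an interval of 1.17 to 4.17. These levels rest on 251 to 694 counts per Sst library and 92 to 272 per Trpv1 library, and the lowest, 92 counts, has an exact Poisson interval of 74.2 to 113 that covers counting error only.

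Somatostatin mRNA was the most abundant of the 3 in every library, in both groups. Sst stood at 183, 77.7, 196 and 335 CPM in the Sst libraries. In the Trpv1 libraries Sst stood at 84.8, 58.4, 70.2 and 163 CPM. Sst replicates 1, 3 and 4 exceeded every Trpv1 library, and Sst replicate 2 fell below Trpv1 replicates 1 and 4. The means were 198 ± 106 and 94.2 ± 47.4 CPM, and the log2 fold change of 1.07 (SE 0.354, 95% interval 0.33 to 1.80) missed the threshold at adjusted p = 0.0753. The linear fold was 2.09, with an interval of 1.26 to 3.48. This gene is the one that drives Cre in the Sst line, and 3369 Sst counts were nevertheless read in the 4 Trpv1 libraries together.

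The call on Sst changed when single libraries were left out. Without Sst replicate 2 its log2 fold change was 1.35 (adjusted p = 0.0166), and without Trpv1 replicate 4 it was 1.49 (adjusted p = 0.0206). Without Sst replicate 4 it was 0.69 (adjusted p = 0.270). The other gene behind a Cre line, Trpv1, was at 101 ± 69.2 CPM in the Sst group and 195 ± 77.9 in the Trpv1 group (log2 fold change −0.95, adjusted p = 0.109), so neither driver gene was called between the groups.

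Nts did not share the direction of the other two. Its levels were 40.0, 38.9, 21.9 and 38.4 CPM in the Sst libraries. They were 27.3, 23.9, 36.4 and 67.1 CPM in the Trpv1 libraries. The highest value of all belonged to Trpv1 replicate 4 and the lowest to Sst replicate 3, and 0 Sst libraries lay above all Trpv1 libraries. The means of 34.8 ± 8.64 and 38.7 ± 19.7 CPM gave a log2 fold change of −0.17 (SE 0.396, 95% interval −0.99 to 0.65, adjusted p = 0.865). The interval on the linear scale, 0.505 to 1.57, covers no change and also sizable changes either way. The sign turned without Trpv1 replicate 4 (0.26) and without Sst replicate 3 (0.03).

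Pairing each Sst library with each Trpv1 library gives the same picture. The Sst library was higher in 14 of 16 pairs for Nppb, in 14 of 16 for Sst and in 9 of 16 for Nts. With 0 of the 3 peptides called, against 6.35% of all genes tested, the data show a difference at this threshold for none of them. That does not show equal levels: in simulated counts the same test called 6% of 2-fold differences. The simulated differences were set in genes of all levels, and that table gave 35 calls against 751 here. Fewer calls make the adjusted threshold stricter, so 6% need not hold for these 3 peptides. By edgeR's quasi-likelihood test the unadjusted p was 0.0162 for Nppb, 0.00622 for Sst and 0.678 for Nts. DESeq2 gave adjusted p = 0.0968, 0.0678 and 0.899 for Nppb, Sst and Nts, and limma voom 0.266, 0.102 and 0.982.

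**Figure D1:**
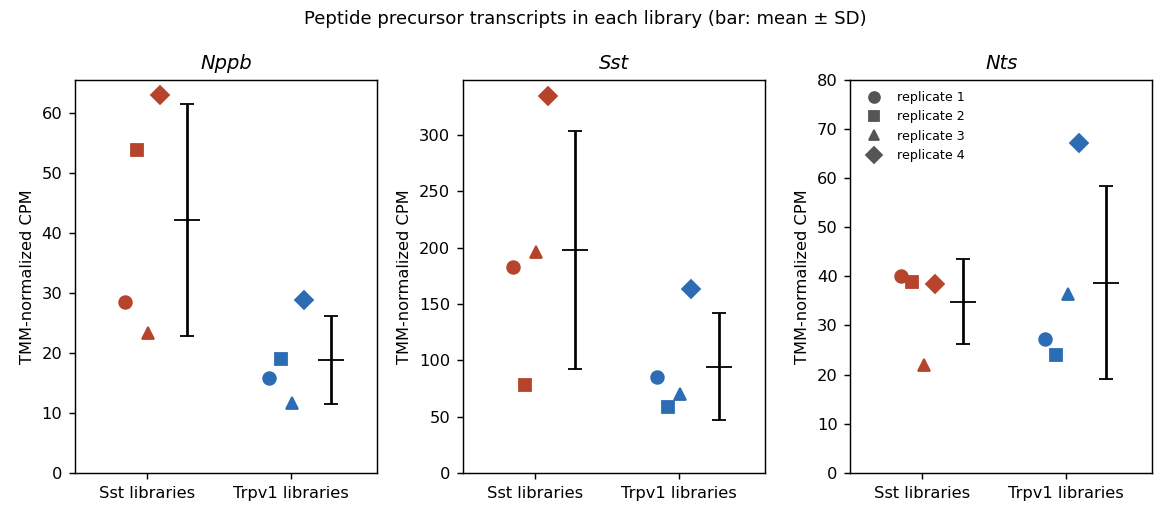
Levels of Nppb, Sst and Nts in CPM (TMM-scaled) in each of the 8 libraries, with 1 panel per gene and its own axis starting at 0; points are libraries, marker shapes are replicate numbers, and bars are mean ± SD (n = 4). The groups overlap in every panel, and Trpv1 replicate 4 is the highest Trpv1 library in all 3.

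The peptides varied between libraries of one group by more than counting error. The highest Sst library held 4.31 times the Sst level of the lowest, and the ratio among Trpv1 libraries was 2.80. For Nppb these ratios were 2.71 and 2.47, and for Nts 1.83 and 2.80. Sst stood out for its level: its SD on the log2 scale was 0.868 in the Sst libraries, where 98.6% of 910 genes within a log2 CPM of 0.5 of it had a smaller SD (median 0.320). In the Trpv1 libraries its SD was 0.643 and 92.5% of those genes had a smaller one. Nppb (0.687 and 0.531 in the Sst and Trpv1 libraries) and Nts (0.413 and 0.653) lay nearer the medians of their own like-level genes, which were 0.554 and 0.598 for Nppb and 0.489 and 0.537 for Nts.

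Trpv1 replicate 4 was the highest Trpv1 library for all 3 peptides, a place it held for 26.6% of tested genes. Among the Sst libraries, replicate 4 was highest for Nppb and Sst, against 28.9% of genes, and replicate 3 was lowest for Nppb and Nts, against 24.8%. These are descriptions of single libraries and carry no test.

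Libraries that were high for one peptide were not reliably high for another. On log2(CPM + 0.5) over the 8 libraries, Nppb and Sst had Pearson r = 0.573 (exact permutation p = 0.143, adjusted over 3 pairs 0.430) and Spearman rho = 0.571 (exact permutation p = 0.151, adjusted 0.256). Without the 2 libraries farthest from the median of Nppb, Sst replicate 4 and Trpv1 replicate 3, r was 0.085. Leaving out these extremes narrows the range of Nppb, and without either alone r was 0.286 and 0.476. Without Sst replicate 2 alone, the library with much Nppb and little Sst, r was 0.879 (exact permutation p = 0.00794, adjusted 0.0238). That library was singled out by these same values, and the adjustment covers the 3 pairs, not the choice of library. Leaving out any other single library gave an adjusted exact permutation p of 0.333 to 0.639.

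Nppb and Nts had r = 0.348 (exact permutation p = 0.407, adjusted 0.534) and rho = 0.548 (exact permutation p = 0.171, adjusted 0.256), and r = 0.506 without the same 2 libraries. Sst and Nts had r = 0.270 (exact permutation p = 0.534, adjusted 0.534) and rho = 0.167 (exact permutation p = 0.703, adjusted 0.703), and r = 0.056 without Sst replicate 4 and Trpv1 replicate 2. With each group's mean removed, r was 0.251 for Nppb and Sst, 0.579 for Nppb and Nts and 0.397 for Sst and Nts, with exact permutation p adjusted over the 3 pairs of 0.615, 0.492 and 0.492. Inside a group only 4 libraries remain, and no test was run there. As a description, the within-group r for Sst and Nts was −0.14 in the Sst group and 0.909 in the Trpv1 group.

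**Figure D2:**
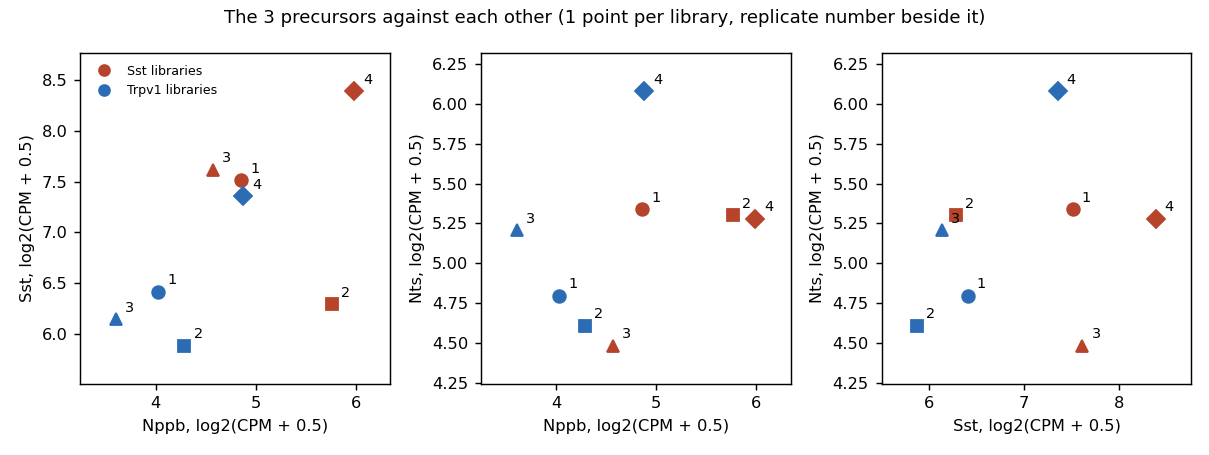
Each panel plots log2(CPM + 0.5) of 1 peptide against another over the 8 libraries, with colours for the groups and the replicate number beside each point. Sst replicate 2 lies apart in the Nppb and Sst panel, and Trpv1 replicate 4 lies at the upper end of the Trpv1 libraries in all 3 panels.

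Many other genes in these libraries had correlations of this size. Of 7335 other genes whose mean log2 CPM was 3 or more, 12.3% correlated more highly with Nppb than Sst did, and 26.3% more highly than Nts did. With Sst as the reference, 10.8% of genes exceeded Nppb and 32.0% exceeded Nts. With Nts as the reference, 19.8% exceeded Nppb and 26.3% exceeded Sst. Once group means were removed, 30.7% of genes exceeded Sst and 8.68% exceeded Nts with Nppb as the reference. For Sst as the reference 31.6% then exceeded Nppb and 21.6% Nts, and for Nts 9.95% exceeded Nppb and 21.3% Sst. The genes whose pattern was most like Nppb over the 8 libraries were Mras (r = 0.983), Scg2 (0.956), Ankrd13a (0.955), Zyx (0.945) and Atf6b (0.930). For Sst they were Gna14 (0.953), Cldn12 (0.943), Dusp8 (0.942), Vdac2 (0.938) and Ppme1 (0.933), and for Nts Cd109 (0.936), Swi5 (0.933), Txn1 (0.910), Asf1a (0.907) and Gspt1 (0.898). The 15 genes are the top of the 7335 compared over 8 libraries that share preparation, so their r is a description. None of these genes appears under more than 1 peptide.

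The proportions of the peptides compare transcripts within a library and so do not depend on its scaling. Somatostatin reads exceeded Nppb reads 6.42, 1.44, 8.42 and 5.32 times in the Sst group and 5.35, 3.07, 6.01 and 5.66 times in the Trpv1 group. Sst replicate 2 is the low value of the first group. On the log2 scale the groups stood at 2.16 ± 1.12 and 2.25 ± 0.442, a difference of −0.09 (SE 0.602, exact permutation p = 0.943, n = 4 and 4).

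The ratio of Nts to Nppb was 1.41, 0.723, 0.940 and 0.610 in the Sst group and 1.73, 1.25, 3.12 and 2.32 in the Trpv1 group. Sst replicates 2, 3 and 4 lay below every Trpv1 library, and Sst replicate 1 above Trpv1 replicate 2. The log2 means were −0.19 ± 0.519 and 0.97 ± 0.552, a difference of −1.17 (SE 0.379), with a two-sided exact permutation p = 0.0571 (n = 4 and 4) and 0.171 after adjustment over the 3 ratios. The ratio of Nts to Sst was 0.219, 0.501, 0.112 and 0.115 in the Sst group and 0.322, 0.409, 0.519 and 0.410 in the Trpv1 group. Its log2 difference was −1.08 (SE 0.525, exact permutation p = 0.114, adjusted 0.171), and 3 of the 4 Sst libraries lay below all Trpv1 libraries. A comparison of 4 with 4 libraries cannot give an exact p below 0.0286.

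Among 25 neuropeptide precursor genes, levels between genes were compared as CPM per kilobase of exon. In the Sst libraries Sst came first at 274 ± 146, followed by Nppb at 53.9 ± 24.7, neuromedin B (Nmb) at 32.9 ± 15.8, Nts at 27.9 ± 6.93 and Calca at 22.5 ± 12.7. From Nppb down to Calca each gene's range of libraries overlapped that of its neighbour, so that part of the order is not settled; Sst, at 108 to 464, lay above the 29.8 to 80.6 of Nppb. In the Trpv1 libraries Calca came first at 712 ± 142, Sst next at 131 ± 65.7 and Tac1 after it at 121 ± 35.0. Nts was the eighth at 31.0 ± 15.7 and Nppb the tenth at 24.1 ± 9.38, with Cartpt (29.6) between them. Sst and Tac1, and likewise Nts, Cartpt and Nppb, lay within each other's spread. Within single libraries Sst exceeded Nppb and Nts per kilobase in 8 of 8, while Nppb exceeded Nts in 4 of 4 Sst libraries and in 1 of 4 Trpv1 libraries.

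**Figure D3:**
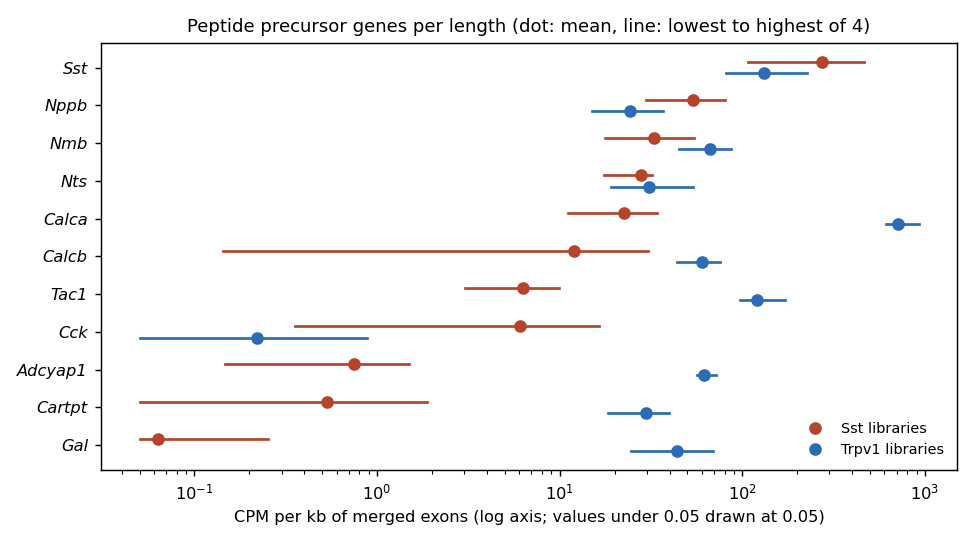
CPM per kilobase of exon, on a log axis, of 11 neuropeptide precursor genes in the Sst and the Trpv1 libraries; dots are means, lines run from the lowest to the highest of 4 libraries, and values under 0.05 are drawn at 0.05. Sst leads the Sst libraries with a mean of 274, and in the Trpv1 libraries it is second to Calca, at 712.

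Of all reads counted for these 25 precursor genes, Sst took 49.3% ± 18.0 in the Sst group and 4.12% ± 1.15 in the Trpv1 group. Nppb took 10.8% ± 4.29 and 0.844% ± 0.202, and Nts 9.20% ± 2.56 and 1.69% ± 0.504. Together the 3 peptides made up 69.3% ± 12.5 and 6.66% ± 1.65. The denominator of these shares itself differs between the groups. Of 22 other precursors 8 were tested, 6 of which were called lower and 0 higher (all genes, either direction: 6.35%). Gal, Cartpt, Adcyap1 and Calcb did not pass the filter on low counts by their Sst libraries alone, nor Cck by its Trpv1 libraries alone. The count over those tested is therefore a description only.

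Those 6 were CGRP (Calca, 37.8 ± 21.4 against 1198 ± 239 CPM in the Trpv1 libraries), PACAP (Adcyap1, 2.81 ± 2.23 against 233 ± 28.1), substance P (Tac1, 21.4 ± 9.58 against 411 ± 119), CART (Cartpt, 0.679 ± 1.15 against 37.8 ± 11.2), galanin (Gal, 2 counts in all against 1217) and Calcb (15.1 ± 16.3 against 76.0 ± 16.5). Calca and Calcb are near-identical in part and can share reads. The call on Calcb (adjusted p = 0.00483) was lost in DESeq2 (0.184), in the earlier quasi-likelihood form (0.164), in libraries with Xist (0.102) and in those without pituitary transcripts (0.232). Among precursors not called, Nmb was at 26.1 ± 12.6 against 52.6 ± 13.6 CPM (adjusted p = 0.133) and Cck at 331 against 9 counts (adjusted p = 0.0554 in edgeR, and called higher by DESeq2). Nppa, the neighbour and closest relative of Nppb on chromosome 4, had 30 counts, all in Sst replicate 3, and Npy, Vip, Tac2, Nppc and Cort had 0 in all 8 libraries. A count of 0 allows up to 0.0396 CPM over the 8 libraries, from a floor of 3 counts.

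**Figure D4:**
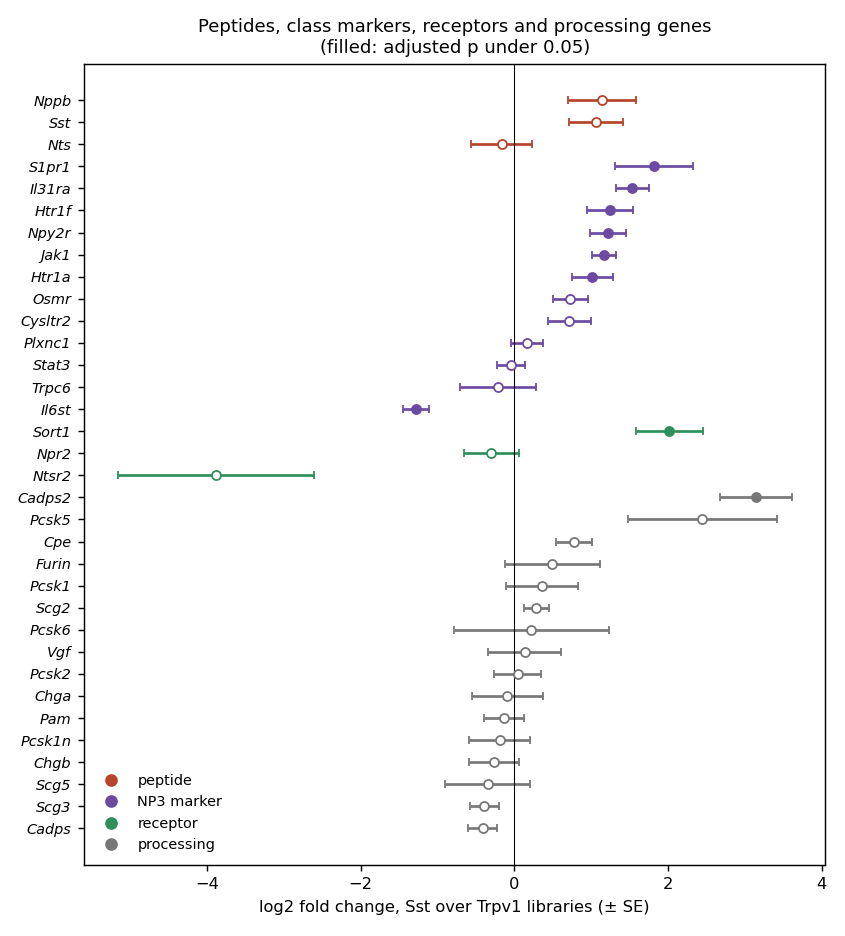
Log2 fold changes, Sst over Trpv1, with bars of ± 1 SE from edgeR, for the 3 peptides and for tested genes of the NP3, receptor and processing lists; filled points are called at an adjusted p under 0.05. Nppb (1.15) and Sst (1.07) lie above 0 with open points, and the bar of Nts (−0.17) crosses 0.

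Other NP3 markers were tested as the company in which these peptides are known to occur. Of 12, 6 were called higher in the Sst libraries, 1 lower and 5 neither (6.35% of all genes tested were called), at a median log2 fold change of 0.87. The list was chosen with earlier results of these data known, so its count is no independent evidence. Higher were the interleukin-31 receptor Il31ra (454 ± 115 against 157 ± 8.71 CPM), the kinase Jak1 (2933 ± 604 against 1309 ± 102), the neuropeptide Y receptor Npy2r (391 ± 133 against 168 ± 26.9), the serotonin receptors Htr1f (176 ± 69.3 against 74.4 ± 21.7) and Htr1a (148 ± 40.9 against 73.3 ± 10.4), and the sphingosine phosphate receptor S1pr1 (40.9 ± 26.7 against 11.8 ± 4.67). The cytokine coreceptor Il6st was lower (996 ± 237 against 2422 ± 177 CPM).

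The log2 fold changes of Nppb (1.15) and Sst (1.07) fell in the range of the genes called higher, which ran from 1.01 for Htr1a to 1.81 for S1pr1. Il31ra, at 1.54 (SE 0.216, adjusted p = 4.67e-05), had an SE smaller than the 0.442 of Nppb and the 0.354 of Sst. The oncostatin M receptor Osmr (log2 fold change 0.73, adjusted p = 0.0568) and the leukotriene receptor Cysltr2 (0.72, adjusted p = 0.138) were not called, as with Nppb and Sst. Without Sst replicate 4, the library highest for both Nppb and Sst, 4 of the 12 were called (all genes: 747 of 12420). Htr1f, Htr1a and S1pr1 were then not called (adjusted p = 0.0567, 0.0836 and 0.149). S1pr1 was also not called without Sst replicate 1 or without Trpv1 replicate 1, 3 or 4 (adjusted p 0.0594 to 0.0919), nor Htr1a without Trpv1 replicate 3 or 4 (0.0651 and 0.0561). The 4 libraries without pituitary transcripts are 3 Sst libraries and 1 Trpv1 library, so calls among them are not read as a result about these markers.

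With group means removed, Nppb correlated positively with 12 of the 12 NP3 markers over the 8 libraries (median r = 0.437), Sst with 9 (median 0.293) and Nts with 5 (median −0.09). Of these 36 relations the smallest adjusted exact permutation p was 0.822, so none passed. Against 7 markers of myelinated neurons the median group-centred r was −0.64 for Nppb, −0.37 for Sst and −0.42 for Nts (smallest adjusted exact permutation p = 0.0729 of 21). Those markers sum to 4201 to 7470 CPM in the Sst group and 2045 to 3101 in the Trpv1 group, with 7 of 7 called higher (all genes, either direction: 6.35%). Peptidergic nociceptor markers sum to 58.2 to 125 and 1958 to 2727 CPM, with 6 of 6 called lower. Pvalb, Ntrk3, Spp1 and Slc17a7 did not pass the filter on low counts by their Trpv1 libraries alone, nor Adcyap1 by its Sst libraries alone. The counts of both marker lists are therefore descriptions only. Both pools hold transcripts that mark other neuron classes, and their part in the peptide levels was not tested.

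Genes of the peptides' receptors were mostly at or near 0. Npr1, the BNP receptor, had 1 count in the Sst and 4 in the Trpv1 libraries, and the clearance receptor Npr3 had 7 and 12. Npr2, the receptor of the related peptide CNP, was the exception, at 44.6 ± 16.6 and 54.5 ± 14.7 CPM (log2 fold change −0.30, adjusted p = 0.706). Sstr3, Sstr5 and Ntsr1 had 0 counts in all 8 libraries. Sstr2 had 3 counts in the Sst and 123 in the Trpv1 libraries, 72 and 49 of them in Trpv1 replicates 3 and 4. Sstr1 had 22 counts in 1 Trpv1 library, and Sstr4 had 4 and 12 counts in the 2 groups. Ntsr2 had 11 and 145 counts (adjusted p = 0.0710).

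Of 11 receptors listed 3 passed the filter on low counts, and 1 was called (all genes: 6.35%). This was Sort1, sortilin, a sorting receptor that binds neurotensin among several ligands. The Sst libraries held 53.9, 64.8, 31.7 and 107 CPM of Sort1. The Trpv1 libraries held 20.0, 15.7, 19.3 and 9.02 CPM. Every Sst library exceeded every Trpv1 library, and the log2 fold change was 2.02 (SE 0.432, adjusted p = 0.00470). The call was lost among libraries with Xist alone, 4 Sst against 2 Trpv1 (adjusted p = 0.0590), and among those without pituitary transcripts, 3 against 1 (adjusted p = 0.303).

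Of 17 genes that process, sort or release peptide precursors, 16 were tested and 1 was called, a share near the 6.35% of all genes, at a median log2 fold change of 0.09. Cadps2, which primes dense-core vesicles for release, stood at 163, 142, 183 and 43.2 CPM in the Sst libraries. In the Trpv1 libraries Cadps2 stood at 9.83, 24.3, 24.5 and 3.61 CPM. All Sst libraries exceeded all Trpv1 libraries (log2 fold change 3.14, SE 0.468, adjusted p = 9.58e-05), and replicate 4 was the lowest of each group, whereas it was the highest for Sst.

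The precursor proteases did not pass. Pcsk1 was at 24.0 ± 10.5 and 18.6 ± 3.23 CPM in the Sst and Trpv1 libraries, Pcsk2 at 115 ± 17.9 and 111 ± 56.2, Furin at 12.5 ± 3.80 and 8.69 ± 5.79, and Pcsk5 at 6.92 ± 6.04 and 1.19 ± 1.38 (adjusted p = 0.137). Corin, the cardiac protease of natriuretic peptide precursors, had 1 count in total. Carboxypeptidase E (Cpe), which trims the cut peptides, was at 311 ± 92.4 and 181 ± 36.6 CPM (log2 fold change 0.78, adjusted p = 0.0518), and was called in 5 of 20 alternative analyses. The granin Scg2, one of the genes most like Nppb in pattern, was at 1105 ± 109 and 905 ± 120 CPM (log2 fold change 0.29, adjusted p = 0.336).

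Of the peptidases that break down the released peptides, 5 of 6 were tested. By edgeR's test, by DESeq2 and by limma voom 0 were called (all genes in edgeR's test: 6.35%). For 5 genes, 0 called is near that share and is no result about peptidases. Of these 5, 1, Thop1, had an unadjusted p under 0.05 in edgeR's test. Neprilysin (Mme), which cleaves natriuretic peptides, was at 34.9 ± 21.6 and 18.7 ± 10.1 CPM in the Sst and Trpv1 libraries. Thimet oligopeptidase (Thop1), which cleaves neurotensin, was at 26.2 ± 11.6 and 7.61 ± 7.74 CPM (log2 fold change 1.68, adjusted p = 0.105). Neurolysin (Nln), another neurotensin-cleaving enzyme, was at 3.49 and 3.96 CPM.

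Sst and Nts are also made by spinal interneurons, and some libraries held pituitary transcripts, so markers of both were read beside the peptides. Of the spinal interneuron markers Slc32a1 and Lbx1 had 0 counts in all 8 libraries, and Gad1 had at most 5 in any library. Gad2 reached 119 counts in Trpv1 replicate 1, and Slc6a5 had 90 counts, all in 1 Trpv1 library. The summed spinal markers ran from 5.48 to 6.62 CPM in the Sst and from 0.639 to 25.9 CPM in the Trpv1 libraries. Pituitary markers ran from 0.0907 to 463 and from 0 to 1770 CPM, with Lhb at 0 throughout. The highest Nts level, 67.1 CPM, was in Trpv1 replicate 4. That library had 0 counts of Gh and Prl and also the highest sum of spinal markers, made up almost wholly by Pax8 (243 counts, 25.8 CPM). The part of these markers in the Nts level was not tested. Mast cell markers reached at most 0.816 and 2.48 CPM, with Mcpt4, Tpsb2 and Fcer1a at 0.

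Among the 4 libraries without pituitary transcripts, the 1 Trpv1 library left is replicate 4, the highest of its group for all 3 peptides, and the spread comes from the 3 Sst libraries alone. The log2 fold changes there were 0.45 for Nppb (adjusted p = 0.785), 0.58 for Sst (0.646) and −0.97 for Nts (0.551). Among the 6 libraries with Xist they were 1.05 (0.388), 0.78 (0.415) and −0.56 (0.560). Every Sst library has Xist, and 3 of the 4 Trpv1 libraries but 1 of the 4 Sst libraries have pituitary transcripts, so these and the groups cannot be fully told apart.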

How the data were processed

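RNA was measured in 8 pools of hand-picked DRG neurons, 4 Sst and 4 Trpv1. Per the labels' protocols, RNA was extracted with PicoPure, amplified with Ovation V2 and made into Nextera XT libraries, and each picking session held 1 sample per genotype; the labels do not say that replicate numbers mark sessions. Small pools need amplification, which adds spread at low abundance. The table the authors deposited holds raw counts of reads per gene symbol. Per the submitters' processing notes, they used bcl2fastq 2.17, Trimmomatic 0.33 and featureCounts on GRCm38. Not given in the sources used here are the aligner, the annotation, the strand setting and how multi-mapped reads were counted. Every column was assigned by its name, with 0 unused. The labels call the samples independent; replicates of a group differed by 40.0 to 100.0 in chi-square per degree of freedom over 12 pairs, so each counted once.

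Counts were tested as deposited with edgeR 4.0.16 (R 4.3.3): TMM scaling, the expression filter at a minimum count of 10, robust quasi-likelihood fit in its bias-adjusted form, group as sole term, two-sided F test, Benjamini-Hochberg adjustment over all 11828 genes and a threshold of 0.05. Intervals of 95% come from the fold change and its F statistic. The biological coefficient of variation was 69.1%. Ratios and correlations used log2(CPM + 0.5) and exact permutation (SciPy 1.17.1). Alternatives were other size factors, filters and tools (DESeq2 1.42.0, limma 3.58.1), a replicate block, a term for Xist, subsets of libraries and leaving out each replicate. The script was tested on simulated counts, with 100 genes set at a 2-fold and 100 at a 4-fold difference, drawn from all tested genes. The edgeR test called 6% and 27% of them, and 2 of its 35 calls were false.

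The 3 peptides, the gene lists and the tests were chosen with earlier results of these data known. Named were the 3 peptides, every called member of the NP3, receptor, processing and peptidase lists, the 6 called other neuropeptides, uncalled direct receptors and enzymes, and the 5 genes most correlated with each peptide. Genes outside that rule (Trpv1, Xist, Gh, Prl, Osmr, Cysltr2, Nmb, Cck, Nppa, Gad1, Gad2, Slc6a5, Pax8 and genes listed at 0) were named after their values were seen, or to check the labels. Promoters are from RefSeq on GRCm38.p6, where 3 of 3 genes matched, and positions and exon lengths from GENCODE M21. Protein sequences were not used here.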

Additional observations from a re-analysis of the deposited data

Results flagged for a closer look

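In 42 sets of 4 libraries of one group examined for a single library far from the rest, 5 stood apart, where chance gives about 1 in 20. Nts in Sst replicate 3 was 21.9 CPM, against 38.4 to 40.0 in the other Sst libraries. The log2 ratio of Sst to Nppb in Trpv1 replicate 2 was 1.59, against 2.38 to 2.54 in the other Trpv1 libraries. Calca in Trpv1 replicate 4, the library highest in all 3 itch peptides among the Trpv1 libraries, was 1554 CPM against 1037 to 1109. Gal in Sst replicate 1 was 0.199 CPM with 0 in the other Sst libraries, which is 2 counts, under the floor of 3, and any count beside 3 zeros stands apart in this way. Cartpt in Sst replicate 1 was 2.39 CPM against 0 to 0.327.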

How the results depend on the processing

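Nppb was called in 0 of 20 alternatives (log2 fold change 0.45 to 1.45, leaving out 1 replicate 0.87 to 1.45). Sst was called in 3 of 20 (leaving out 1 replicate 0.69 to 1.49, adjusted p 0.0166 to 0.270). Nts changed sign in limma voom (0.026), without Sst replicate 3 (0.028) and without Trpv1 replicate 4 (0.26), and ran from −0.31 to 0.26 over left-out replicates. The log2 ratio of Sst to Nppb changed sign without Sst replicate 2 (0.45) and without Trpv1 replicate 3 (0.0066), over a left-out range of −0.39 to 0.45, and the correlation of Nppb and Sst ran from 0.286 to 0.879. Same-numbered deviations correlated at −0.033 to 0.029 over 4 pairs, and differently numbered ones at −0.033 to 0.046. These values cannot decide whether replicate numbers mark picking sessions. With a replicate block Sst had a log2 fold change of 1.02 (adjusted p = 0.0369), 5 NP3 markers were called, without Htr1a (0.0690) and S1pr1 (0.0888), and 572 genes were called in all. Genes called over the whole table, 751, numbered 493 in the earlier quasi-likelihood form (chosen after seeing the data), 435 with a term for Xist, 305 in libraries with Xist, 52 in libraries without pituitary transcripts, where the lone Trpv1 library is assumed to vary like the others, 902 in DESeq2, and 452 to 747 leaving out 1 replicate (500 without Sst replicate 1, 452 without Sst replicate 3, 487 without Trpv1 replicate 3). Of the NP3 markers, 7 at first, 4 were called in limma voom, 4 with a term for Xist, 4 in libraries with Xist, 0 in those without pituitary transcripts and 4 to 8 leaving out 1 replicate. Receptors called went from 1 to 0 in libraries with Xist and 0 in those without pituitary transcripts. Processing genes called went from 1 to 2 without a filter, 2 with a stricter one, 2 in DESeq2, 0 in libraries without pituitary transcripts and 1 to 2 leaving out 1 replicate. Subsets of libraries hold fewer samples, and for the other changes the cause was not tested. With 4 libraries a group, the spread between libraries, not counting error, limits these comparisons.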
